A study of Mus musculus with 2 samples.

Results

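The 10 genes *Jag1*, *Jag2*, *Dll1*, *Notch1*, *Notch2*, *Notch4*, *Hes1*, *Hey1*, *Hey2* and *Heyl* were read by symbol, of 31053 genes listed, in primary mouse brain pericytes (PCs) at passage 5 (PC5) and passage 20 (PC20). Each passage had 1 library of single cells captured in droplets. The cells came from brains of female wild type C57BL/6N mice of 6 to 8 weeks, with 6 mice pooled for an isolation. By the methods of the study PC5 and PC20 came from separate isolations, whereas the deposited description speaks of a single one, so passage and isolation cannot be told apart. The labels name no treatment of the cultures.

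Notch signalling passes between touching cells. A Jagged or Delta-like ligand on a cell binds a Notch receptor on its neighbour, ADAM proteases and then gamma-secretase cut the receptor, and the freed intracellular part joins RBPJ and Mastermind-like coactivators on DNA. *Hes* and *Hey* genes, which encode transcriptional repressors, are among its direct targets, and in blood vessels the pathway is known for signalling between endothelial and mural cells.

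The files hold counts of unique molecular identifiers (UMIs, each a tag on 1 captured RNA). Barcodes passed with over 1000 genes detected and less than 20% of their UMIs mitochondrial, which left 9950 of 10629 barcodes in PC5 and 4749 of 4884 in PC20. The kept cells held 223054273 and 191122251 UMIs, with medians of 21700 and 33424 UMIs per cell, and 20 barcodes occurred in both libraries. Levels are given as CPM, the UMIs of a gene over all kept cells per 1000000 UMIs of the library. UMIs from the 3′ end of transcripts do not grow with transcript length, so levels of different genes were set side by side on this scale. Whether capture and mapping at the 3′ end differed between genes was not checked. Ranks and shares between genes are therefore of UMIs only. The log2 ratio divides PC5 by PC20 CPM, without a pseudocount, and the 95% intervals cover counting error in these libraries only. No test between the passages was possible with 1 library each. Shares of cells were taken after each cell was thinned to 1 common number of UMIs, which left out 1103 and 275 cells with fewer and kept 8847 PC5 cells and 4474 PC20 cells. Among 10 genes of unrelated lineages the highest such share was 0.124% in PC5 and 0.0894% in PC20, and a share at or under that level was read as background. The 9 pericyte markers summed to 87.7 CPM in PC5 against 10.8 CPM in PC20, where 4 of them, *Rgs5* included, were at 0. The others at 0, *Kcnj8*, *Vtn* and *Higd1b*, had at most 20 UMIs each in PC5. Most of the PC5 sum was *Pdgfrb* at 44.6 CPM and *Ndufa4l2* at 33.7 CPM. *Anpep* was higher in PC20, at 3.00 against 1.93 CPM.

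Transcripts of *Notch1*, *Notch2*, *Notch4* and *Hes1* were higher in PC5, *Jag2* was higher in PC20, and *Jag1* was close to level. Other Notch receptors were not analysed, and receptor in what follows means *Notch1*, *Notch2* and *Notch4* only. Summed over the members of each role, the receptors lay at 119.9 CPM in PC5 against 23.4 CPM in PC20, with the log2 ratio at 2.36 (2.31 to 2.40). The targets lay at 50.5 and 12.4 CPM, with the log2 ratio at 2.02 (1.96 to 2.09), nearly all of it *Hes1*. The ligands lay at 6.76 and 12.8 CPM, with the log2 ratio at -0.92 (-1.02 to -0.83). A UMI in at least 1% of thinned cells of either library was found for 6 of the 10 members, namely *Jag1*, *Jag2*, *Notch1*, *Notch2*, *Notch4* and *Hes1*. Of these 6, 5 had a log2 ratio past 1 in size, 4 of them higher in PC5 and 1 higher in PC20. Among all 12294 genes that met the same minimum, 40.6% were past 1 in size, 21.6% higher in PC5 and 19.0% higher in PC20. The median log2 ratio was 2.11 for the 6 members and 0.04 for all 12294 genes. *Dll1*, *Hey1*, *Hey2* and *Heyl* were under the minimum and are described by their UMIs.

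**Figure D1:**
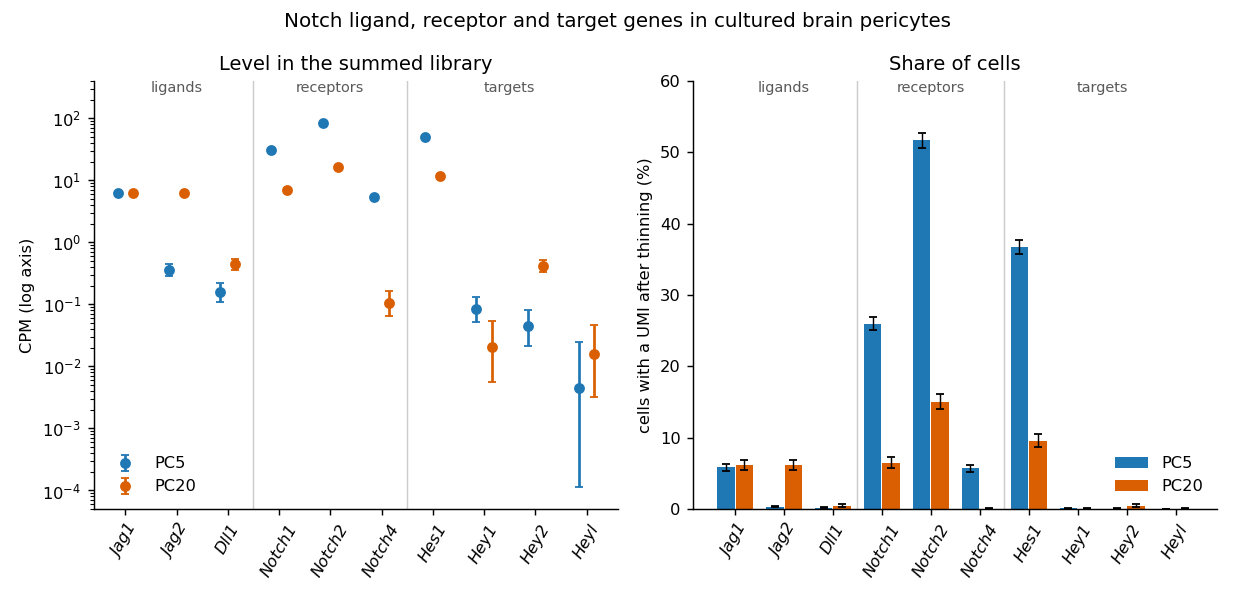
Level of the 10 genes in each library as CPM on a log axis (left; points with 95% Poisson intervals) and share of thinned cells with a UMI in percent (right; bars with 95% Clopper-Pearson intervals), PC5 in blue and PC20 in orange. The 3 receptors and *Hes1* sit higher in PC5, *Jag2* sits higher in PC20 (6.20 against 0.363 CPM), and the *Jag1* points coincide at 6.24 and 6.16 CPM.

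*Jag1* and *Jag2* encode the Jagged ligands, and *Dll1* encodes a Delta-like ligand. *Jag1* (chr2:137081456-137116644, minus strand, GRCm38) held 1392 UMIs in PC5 against 1178 in PC20, which gave 6.24 CPM (5.92 to 6.58) and 6.16 CPM (5.82 to 6.53). Its log2 ratio was 0.02 (-0.10 to 0.13), and 5.84% of PC5 cells and 6.15% of PC20 cells had a UMI, so the libraries could not be separated on this gene. *Jag2* (chr12:112907819-112929776, minus strand) held 81 UMIs in PC5 against 1185 in PC20. Its level was 0.363 CPM (0.288 to 0.451) in PC5 against 6.20 CPM (5.85 to 6.56) in PC20, with the log2 ratio at -4.09 (-4.44 to -3.77), or 17.1-fold higher in PC20. A *Jag2* UMI was found in 0.339% of cells at PC5 but 6.19% at PC20.

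The make-up of the ligand pool differed accordingly. *Jag1* supplied 92.3% (90.8 to 93.6) of the ligand UMIs in PC5 and 48.1% (46.1 to 50.1) in PC20. *Jag2* supplied 5.37% (4.29 to 6.63) in PC5 and 48.4% (46.4 to 50.4) in PC20, so in PC20 the intervals of *Jag1* and *Jag2* overlapped. *Dll1* (chr17:15367354-15376872, minus strand) was rare in both, with 35 UMIs in PC5 against 85 in PC20, or 0.157 CPM (0.109 to 0.218) and 0.445 CPM (0.355 to 0.550). Its log2 ratio was -1.50 (-2.11 to -0.92).

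*Notch1* and *Notch2* encode receptors that many tissues express, and *Notch4* encodes a receptor best known from endothelium. *Notch2* (chr3:98013527-98150361, plus strand) was the member with the most UMIs in either library, 18588 in PC5 against 3110 in PC20. It lay at 83.3 CPM (82.1 to 84.5) in PC5 against 16.3 CPM (15.7 to 16.9) in PC20, with the log2 ratio at 2.36 (2.30 to 2.41), and 51.7% and 15.1% of cells had a UMI. *Notch1* (chr2:26457903-26516663, minus strand) held 6955 and 1342 UMIs, or 31.2 CPM (30.5 to 31.9) and 7.02 CPM (6.65 to 7.41). Its log2 ratio was 2.15 (2.07 to 2.24), and the share of cells with a UMI was 26.0% in PC5 and 6.53% in PC20. Of the UMIs of *Notch1*, *Notch2* and *Notch4* together, *Notch2* supplied 69.5% in each passage (69.0 to 70.1 in PC5, 68.2 to 70.9 in PC20). *Notch1* supplied 26.0% (25.5 to 26.5) in PC5 and 30.0% (28.7 to 31.4) in PC20, and *Notch4* 4.46% (4.21 to 4.71) and 0.447% (0.273 to 0.690).

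*Notch4* (chr17:34564268-34588503, plus strand) had the largest ratio of the members. It held 1191 UMIs in PC5 against 20 in PC20, or 5.34 CPM (5.04 to 5.65) and 0.105 CPM (0.0639 to 0.162), with the log2 ratio at 5.67 (5.04 to 6.39). A UMI was found in 5.73% of cells at PC5 but 0.0224% at PC20, the latter 1 cell and under the highest background share. Its UMIs were spread thinly, with no PC5 cell above 3.

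Of the endothelial markers, only *Flt1* was higher in PC20. The 13 markers summed to 213 CPM in PC5 against 75.9 CPM in PC20, and without *Cdh5* the other 12 summed to 45.3 and 75.9 CPM, the reverse. That reversal rests on *Flt1*, which encodes a receptor for vascular endothelial growth factor and lay at 17.6 and 73.9 CPM. *Cdh5*, which encodes the endothelial cadherin, lay at 168 CPM in PC5 against 0.0262 CPM in PC20. In the same direction, *Kdr* lay at 12.8 and 0.0680 CPM, *Esam* at 7.88 and 0.351 CPM and *Egfl7* at 4.52 and 1.40 CPM. *Emcn*, *Erg* and *Robo4* were at 0 in PC20, and none of the 13 was at 0 in PC5, although *Tie1* and *Robo4* had 5 UMIs each there and *Erg* had 1. In the 1958 thinned PC5 cells without a UMI of any of the 13 markers, *Notch4* lay at 5.11 CPM (4.18 to 6.18), against 5.83 CPM (5.29 to 6.42) in the 6889 cells with at least 1. Cells without a detected marker can still hold its transcripts at this depth. Marker sums of other mesenchymal cells were also higher in PC5. The 4 fibroblast markers lay at 1302 CPM in PC5 against 101 CPM in PC20, *Pdgfra* among them at 88.6 and 0.131 CPM. The 4 smooth muscle markers lay at 283 and 49.6 CPM, mostly *Tagln* in PC5 (219 against 0.230 CPM). Without *Tagln* the other 3 summed to 63.8 and 49.3 CPM. The part of these cell types in the *Notch4* values was not tested.

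RefSeq promoter windows on GRCm38.p6 were matched for 7 of the 10 members, and the 250 bases before the annotated start are considered here. The windows of *Notch2* (chr3:98013288-98013537, plus strand) and *Notch4* (chr17:34564045-34564294, plus strand) are shown because both receptors were higher in PC5 while their upstream letters differ. That of *Hey2* (chr10:30842784-30843033, minus strand) is shown because it alone of the 7 held GTGGGAA, a form of the RBPJ site. The windows are printed 5′ to 3′ on the strand of the gene, and capitals mark GTGGGAA or its reverse complement TTCCCAC and the GC box GGGCGG or its reverse complement CCGCCC.
*Notch2* window: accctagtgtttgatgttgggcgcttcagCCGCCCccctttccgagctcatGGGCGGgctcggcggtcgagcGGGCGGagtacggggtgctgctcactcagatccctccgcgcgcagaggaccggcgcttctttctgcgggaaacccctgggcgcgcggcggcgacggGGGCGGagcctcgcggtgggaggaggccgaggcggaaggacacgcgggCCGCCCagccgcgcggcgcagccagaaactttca
*Notch4* window: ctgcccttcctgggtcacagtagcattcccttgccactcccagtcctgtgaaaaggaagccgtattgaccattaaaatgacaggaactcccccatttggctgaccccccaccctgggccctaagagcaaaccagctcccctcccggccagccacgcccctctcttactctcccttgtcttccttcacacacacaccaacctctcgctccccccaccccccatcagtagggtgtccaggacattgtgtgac
*Hey2* window: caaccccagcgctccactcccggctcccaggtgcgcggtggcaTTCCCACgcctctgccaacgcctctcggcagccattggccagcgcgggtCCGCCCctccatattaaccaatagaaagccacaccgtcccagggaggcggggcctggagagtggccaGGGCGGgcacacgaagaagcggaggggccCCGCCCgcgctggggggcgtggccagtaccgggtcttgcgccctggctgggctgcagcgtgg
The *Notch2* window held 5 GC boxes and was 72.0% G or C, and the *Notch4* window held 0 and was 58.4% G or C. The median over all 32851 windows was 52.4%, and 32.7% of them held a GC box on either strand. *Notch1* and *Jag2* also held 5 GC boxes each, 2 of those before *Jag2* overlapping, *Hey2* held 3, and *Jag1* and *Dll1* held 0. The only GTGGGAA match lay on the opposite strand 207 bases before the *Hey2* start, in a search where 5.42% of all windows held that motif. The N-box CACNAG, a site that HES proteins can bind, was found once each before *Notch1* and *Notch2* and in 36.7% of all windows, and the E-box CACGTG was found before none of the 7 and in 6.02% of all windows. These matches describe the letters only.

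*Hes1* encodes a basic helix-loop-helix repressor and is among the best known Notch targets, although other pathways also act on it. *Hes1* (chr16:30064384-30067796, plus strand) held 11245 UMIs in PC5 against 2289 in PC20, or 50.4 CPM (49.5 to 51.4) and 12.0 CPM (11.5 to 12.5). The log2 ratio was 2.07 (2.01 to 2.14), and 36.7% of PC5 cells and 9.61% of PC20 cells had a UMI. It supplied 99.7% of the target UMIs in PC5 and 96.3% in PC20.

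*Hey1*, *Hey2* and *Heyl* encode related repressors that are known from mural cells, the endothelium and the heart. *Hey2* (chr10:30832359-30842801, minus strand) lay in the opposite direction to *Hes1*, with 10 UMIs in PC5 against 81 in PC20, or 0.0448 CPM (0.0215 to 0.0824) and 0.424 CPM (0.337 to 0.527). The log2 ratio was -3.24 (-4.35 to -2.29). A UMI was found in 0.447% of PC20 cells, above the highest background share there. In PC5 the share was 0.0339%, under the highest background share of that library. *Hey1* (chr3:8663359-8667256, minus strand) held 19 and 4 UMIs, which gave a log2 ratio of 2.03 (0.44 to 4.04) but shares of cells of 0.0904% and 0.0224%, under the highest share among the background genes in both passages. *Heyl* (chr4:123233556-123249875, plus strand) held 1 UMI in PC5 against 3 in PC20, and no ratio was formed. The rank of the members by level was *Notch2*, *Hes1* and *Notch1* in both passages, with *Jag1* and *Notch4* next in PC5 and *Jag2* and *Jag1*, whose intervals overlapped, next in PC20. Below them came *Jag2*, *Dll1*, *Hey1*, *Hey2* and *Heyl* in PC5, where the intervals of each neighbouring pair after *Jag2* overlapped, and *Dll1*, *Hey2*, *Notch4*, *Hey1* and *Heyl* in PC20, where those of *Dll1* and *Hey2* and of *Hey1* and *Heyl* did.

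Without thinning, the shares of cells with a UMI were 69.0% against 41.2% for *Notch2*, 43.2% against 20.8% for *Notch1* and 11.1% against 0.400% for *Notch4*, PC5 first. They were 52.3% against 24.3% for *Hes1* and 0.643% against 19.3% for *Jag2*. For *Jag1* a UMI was found in 1098 of 9950 PC5 cells against 888 of 4749 PC20 cells, a higher share in the deeper PC20 cells, while at equal depth the shares were 5.84% (5.36 to 6.35) and 6.15% (5.46 to 6.89), with overlapping intervals.

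A UMI of *Notch1*, *Notch2* or *Notch4* was found in most PC5 cells and in a minority of PC20 cells. At equal depth, 66.2% of PC5 cells and 20.5% of PC20 cells had a UMI of at least 1 of the 3 receptors, and 6.28% and 12.4% had a UMI of a ligand. A ligand UMI with no receptor UMI was found in 175 PC5 cells (1.98%) and 427 PC20 cells (9.54%). The reverse, a receptor UMI with no ligand UMI, was found in 5479 PC5 cells (61.9%) and 793 PC20 cells (17.7%). None of the 10 members had a UMI in 20.9% of the PC5 cells but in 63.1% of those of PC20. Cells without a UMI can still hold the transcripts at this depth, so these shares do not mark cells with only a ligand or only a receptor. For the roles as wholes, they were not set against the product of the ligand and receptor shares. Within PC5 a *Notch2* UMI and a *Hes1* UMI occurred together in 1727 cells, 1.03 times the product of their shares. In PC20 they occurred together in 60 cells, 0.926 times the product. A *Notch1* UMI and a *Hes1* UMI occurred together 1.03 times the product in PC5 and 1.39 times, in 39 cells, in PC20. Pairs with a ligand reached like values. In PC20 *Notch1* stood at 1.39 with *Jag1* and 1.38 with *Jag2*, each in 25 cells, whereas *Jag2* with *Notch2* stood at 0.863. In PC5 *Jag1* with *Hes1* stood at 1.13. No intervals were formed for these values, and a tie between receptor and target was not tested.

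**Figure D2:**
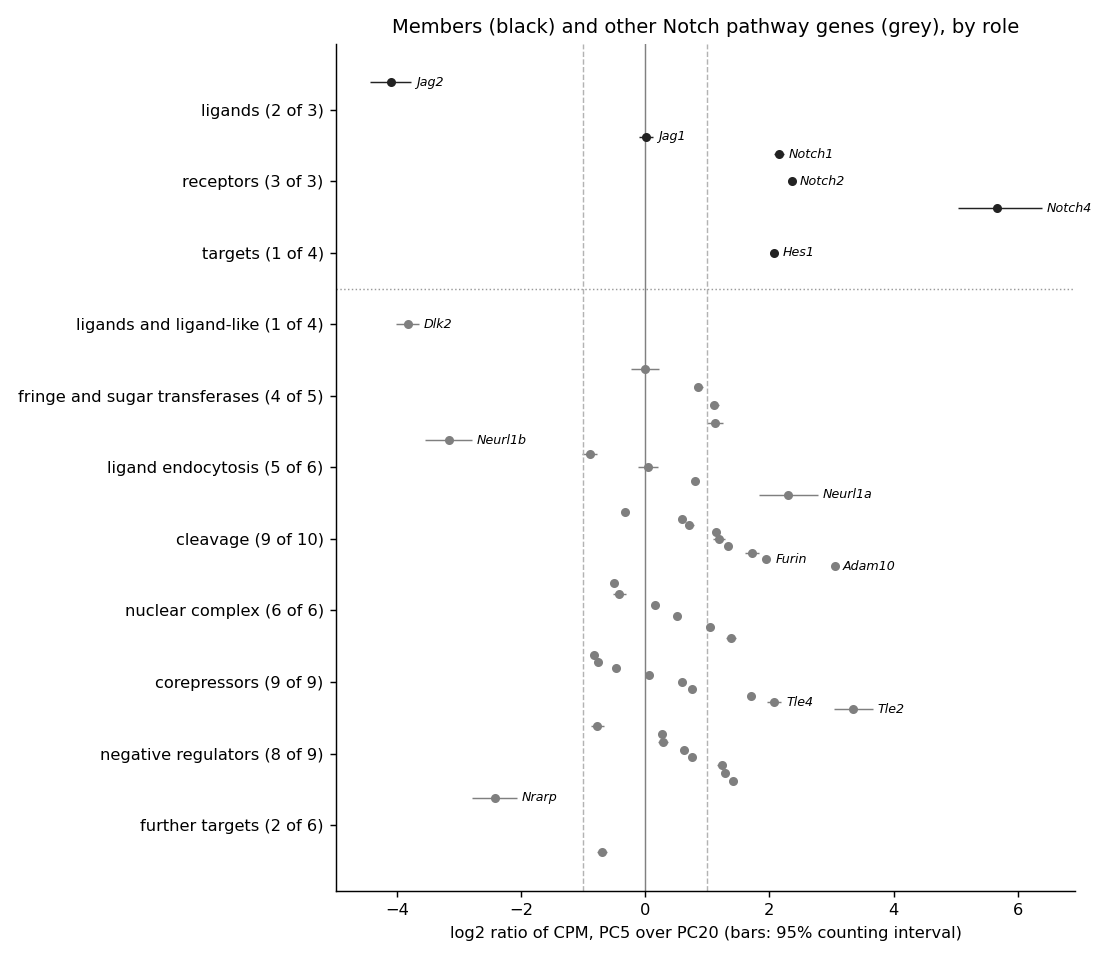
Log2 ratio of PC5 CPM over PC20 CPM for the members (black) and the other Notch pathway genes (grey) that met the 1% minimum, by role, with the number shown of the number listed, 95% counting intervals and dashed lines at -1 and 1. The receptors and *Hes1* lie past 1 with *Adam10*, *Tle2* and *Furin*, while *Jag2*, *Dlk2*, *Neurl1b* and *Nrarp* lie past -1.

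The other pathway genes were counted in the same way. Of 55 other pathway genes, 44 met the 1% minimum. Of these, 17 were higher in PC5 by a log2 ratio past 1, 3 were higher in PC20 by as much and 24 lay between, with a median of 0.67. Among all 12294 genes that met it, 21.6% and 19.0% were past 1 in these directions and 7307 genes lay between. The counts by role that follow stand beside the same 21.6% and rest on at most 9 genes each, so they describe the lists only. Among the cleavage genes 6 of 9 were past 1 in PC5. *Adam10*, whose protease makes the ligand-dependent cut, lay at 237 CPM in PC5 against 28.3 CPM in PC20, with the log2 ratio at 3.06 (3.02 to 3.10). *Furin*, whose protease cuts the receptor during its maturation, had a log2 ratio of 1.95 (1.89 to 2.01). Of the gamma-secretase subunits, *Aph1b* stood at 1.72, *Ncstn* at 1.32 and *Psenen* at -0.33 on the log2 ratio.

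The DNA-binding partner was close to level. *Rbpj*, through which the cleaved receptor reaches DNA, lay at 334 CPM in PC5 against 299 CPM in PC20, with the log2 ratio at 0.16 (0.14 to 0.18), and had a UMI in 93.4% and 91.6% of cells. The coactivator gene *Maml1* had a log2 ratio of 1.37 (1.29 to 1.46), and 2 of the 6 genes of the nuclear complex were past 1. Among the corepressors 3 of 9 were past 1 in PC5 against 0 in PC20. Of these, *Tle4*, of the Groucho family, lay at 15.5 CPM in PC5 against 3.70 CPM in PC20. In the list set up as negative regulators 3 of 8 were past 1 in PC5. They were *Fbxw7*, which marks the cleaved receptor for degradation, at 1.42, and the Deltex genes *Dtx3l* at 1.28 and *Dtx4* at 1.23. The direction in which the Deltex genes act on Notch in these cells was not tested.

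Of the 44 genes, 13 were higher in PC20 in any degree, against 5975 of all 12294 genes. The 3 past a log2 ratio of -1 were *Dlk2*, *Neurl1b* and *Nrarp*. *Dlk2*, which encodes a membrane protein related to the Delta-like ligands, lay at 1.19 CPM in PC5 against 16.9 CPM in PC20, with the log2 ratio at -3.83 (-4.01 to -3.65). *Neurl1b*, for a ubiquitin ligase that promotes ligand endocytosis, had a log2 ratio of -3.16 (-3.55 to -2.80), whereas its relative *Neurl1a* had 2.29 (1.84 to 2.78). *Nrarp*, a feedback inhibitor that Notch signalling induces, had 80 UMIs in PC5 against 367 in PC20, with the log2 ratio at -2.42 (-2.79 to -2.07). *Hes6*, a relative of *Hes1*, held 2195 UMIs in PC5 against 3043 in PC20, with the log2 ratio at -0.69 (-0.77 to -0.61). Of the genes listed as further targets, only *Nrarp* and *Hes6* met the minimum. *Nrarp* was past a log2 ratio of -1, opposite to *Hes1*. *Hes6* lay within 1, and whether it responds to Notch in these cells was not tested. *Hes5* had 0 UMIs in both libraries, and with a floor of 3 cells this allows a UMI in up to 0.0339% of thinned cells at PC5 and 0.0671% at PC20, a limit on cells with a UMI and not on cells that express the gene.

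The passages were also compared cluster by cluster. Each library was clustered on its own with the Notch pathway genes left out of the variable genes, which gave 14 clusters of at least 50 cells in PC5 against 13 in PC20. No cluster had 3 markers of a cell type among its 10 leading genes, so clusters are called by number and leading genes. Leaving aside 1 PC5 cluster and 2 PC20 clusters with shallow cells, *Notch2* lay between 56.0 and 129 CPM across 13 PC5 clusters and between 11.9 and 24.0 CPM across 11 PC20 clusters, with no overlap. *Notch4* lay between 4.08 and 7.71 CPM in PC5 and between 0 and 0.274 CPM in PC20, and *Jag2* between 0 and 1.32 CPM in PC5 and between 3.55 and 11.5 CPM in PC20. The higher *Notch2* and *Notch4* levels of PC5 and the higher *Jag2* level of PC20 were therefore found in each of these clusters of deeper cells. How many of all genes lay apart in this way was not counted, so these ranges do not set the members apart from other genes. *Notch1* came close to overlapping, with a lowest level of 12.8 CPM in PC5 and a highest of 12.6 CPM in PC20. *Hes1* overlapped, at 34.6 to 69.0 CPM in PC5 and 5.03 to 53.0 CPM in PC20. The clusters left aside, 11 of PC5 and 12 and 13 of PC20, had medians of 5630, 4432 and 9711.5 UMIs per cell. The medians of the libraries were 21700 in PC5 and 33424 in PC20. This cut on depth was not among the planned choices. With them included, *Notch1*, *Notch2* and *Jag2* overlapped too. PC5 cluster 11 had *Notch1* at 6.86 CPM and *Notch2* at 14.2 CPM. *Notch2* lay at 38.2 CPM in PC20 cluster 12, and *Jag2* at 0.958 CPM, on 1 UMI, in PC20 cluster 13. *Notch4* did not overlap, at 2.57 CPM in PC5 cluster 11.

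**Figure D3:**
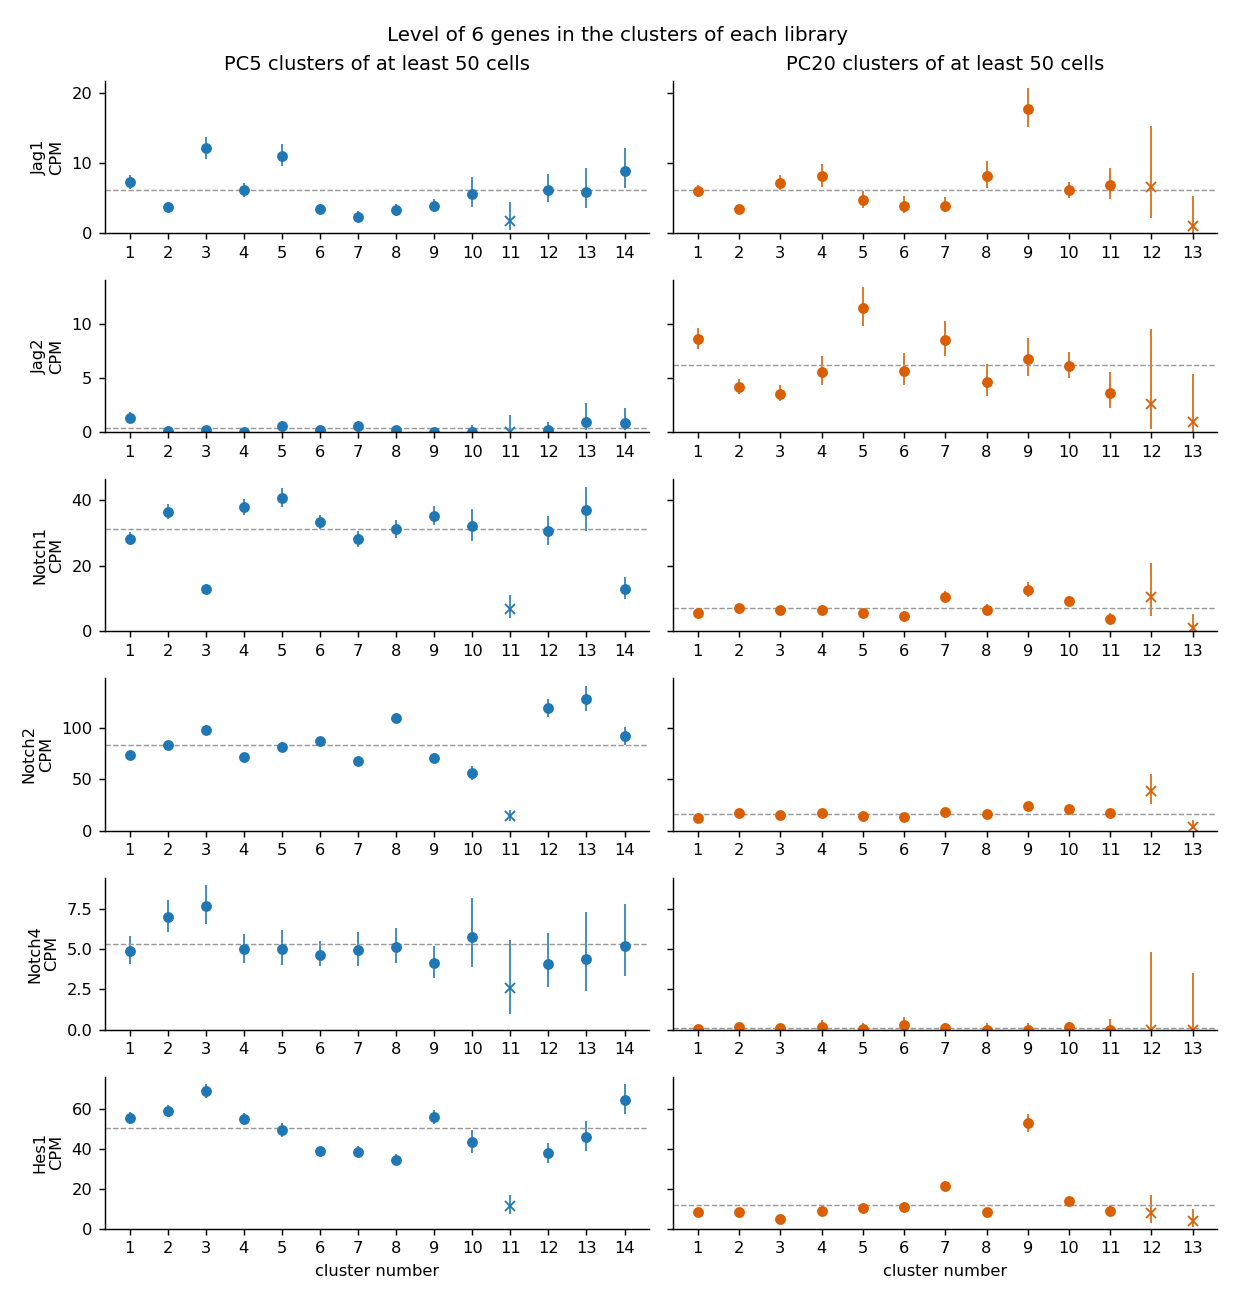
CPM of 6 members in the clusters of at least 50 cells of PC5 (left, blue) and PC20 (right, orange), with 95% Poisson intervals, crosses for clusters of shallow cells and a dashed line at the level of the library. *Notch1* is low in PC5 clusters 3 and 14 (12.8 and 12.9 CPM), and *Hes1* (53.0 CPM) and *Jag1* (17.8 CPM) are highest in PC20 cluster 9.

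Within PC5, *Notch1* set a pair of clusters apart. It lay at 12.8 CPM (11.3 to 14.5) in cluster 3 and 12.9 CPM (9.80 to 16.6) in cluster 14, both with *Xlr* and *Mgp* among the leading genes, and between 28.1 and 40.8 CPM in the other 11 clusters of deep cells. The same pair had *Hes1* at 69.0 and 64.8 CPM, the highest of those 13 clusters, and *Jag1* at 12.1 and 8.95 CPM, above the 6.24 CPM of the library. *Notch2* was not low there, at 98.5 and 92.1 CPM. Cluster 5, led by *Trf*, *Ccl11* and *Mmp3*, had *Jag1* at 11.1 CPM and held 14 of the 35 *Dll1* UMIs of PC5 in 10.1% of the library's cells. Cluster 1, led by *Fst*, *Slc7a11* and *Aldh1a1*, held 36 of the 81 *Jag2* UMIs.

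A group of 30 PC5 cells, cluster 15, stood apart in *Jag1*. It was led by *Mt3*, *Igfbp2*, *Gfap*, *Fabp7*, *Sox2* and *Olig1*, genes known from neural and glial cells. These 30 cells are 0.302% of PC5 and held 93 of its 1392 *Jag1* UMIs (6.68%), at 214 CPM (173 to 262), with a UMI in 20 cells. They also held 5 of the 19 *Hey1* UMIs and had *Hes1* at 122 CPM and *Notch1* at 75.9 CPM. The 0 UMIs of *Notch4*, *Jag2* and *Dll1* there allow up to 8.48 CPM each, above the level of each in the library, so no difference was detectable at this depth. Without them the *Jag1* log2 ratio was -0.08 and that of *Hey1* was 1.59.

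In PC20, *Hes1* was concentrated in cluster 9. Its 225 cells (4.74% of the library), led by *Cdo1* and *Bgn*, held 499 of 2289 *Hes1* UMIs (21.8%) at 53.0 CPM (48.4 to 57.8), close to the level of the whole PC5 library. *Jag1* was highest there as well, at 17.8 CPM (15.2 to 20.7), and so were *Notch1* at 12.6 CPM and *Notch2* at 24.0 CPM among the clusters of deep cells. *Acta2*, for smooth muscle actin, lay at 150.1 CPM in cluster 9 and 49.2 CPM in the library. Cluster 13, of shallow cells, had the most *Acta2*, at 459.8 CPM, but the lowest *Hes1*, at 3.83 CPM (1.04 to 9.81) on 4 UMIs. Without cluster 9 the *Hes1* log2 ratio was 2.36 and that of *Jag1* was 0.17. *Dll1* was highest in cluster 8, led by *Cxcl10*, *Slpi* and *Ccl2*, which held 26 of 85 UMIs at 2.93 CPM (1.92 to 4.30). *Jag2* was highest in cluster 5, led by the DNA replication genes *Cdc6* and *Mcm6*, at 11.5 CPM (9.77 to 13.4).

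The genes whose level followed the most abundant member of each role most closely across clusters were named among 1243 genes of at least 100 CPM in PC5 and 1242 in PC20, by Pearson's *r* of log2(CPM + 1). In PC5, over 14 clusters, these included *Cp* (*r* = 0.909) and *Sdc4* for *Jag1*, *Spag9* (*r* = 0.946), *Col1a1* and *Lman1* for *Notch2*, and *Egr1* (*r* = 0.918), *Irgm1* and *Sgk1* for *Hes1*. In PC20, over 13 clusters, they were *Sfxn1* (*r* = 0.886), *Tspan9* and *Eif1a* for *Jag2*, *Camk2d* (*r* = 0.890), *Runx1* and *Slc25a37* for *Notch2*, and *Hcfc1r1* (*r* = 0.917), *Ly6e* and *Nexn* for *Hes1*. No gene was named for the same role in both passages. Only 3 genes were taken per role from more than 1000, and the ligand was *Jag1* in PC5 but *Jag2* in PC20. The absence of overlap therefore does not compare the passages. Clusters of a library share its depth and its cells' states, and the values are given as a description. The clusters of shallow cells were included here. Cluster 11 of PC5 was the lowest for *Jag1*, *Notch2* and *Hes1*, and cluster 13 of PC20 for *Jag2*, *Notch2* and *Hes1*. How far these clusters set each *r* was not tested.

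**Figure D4:**
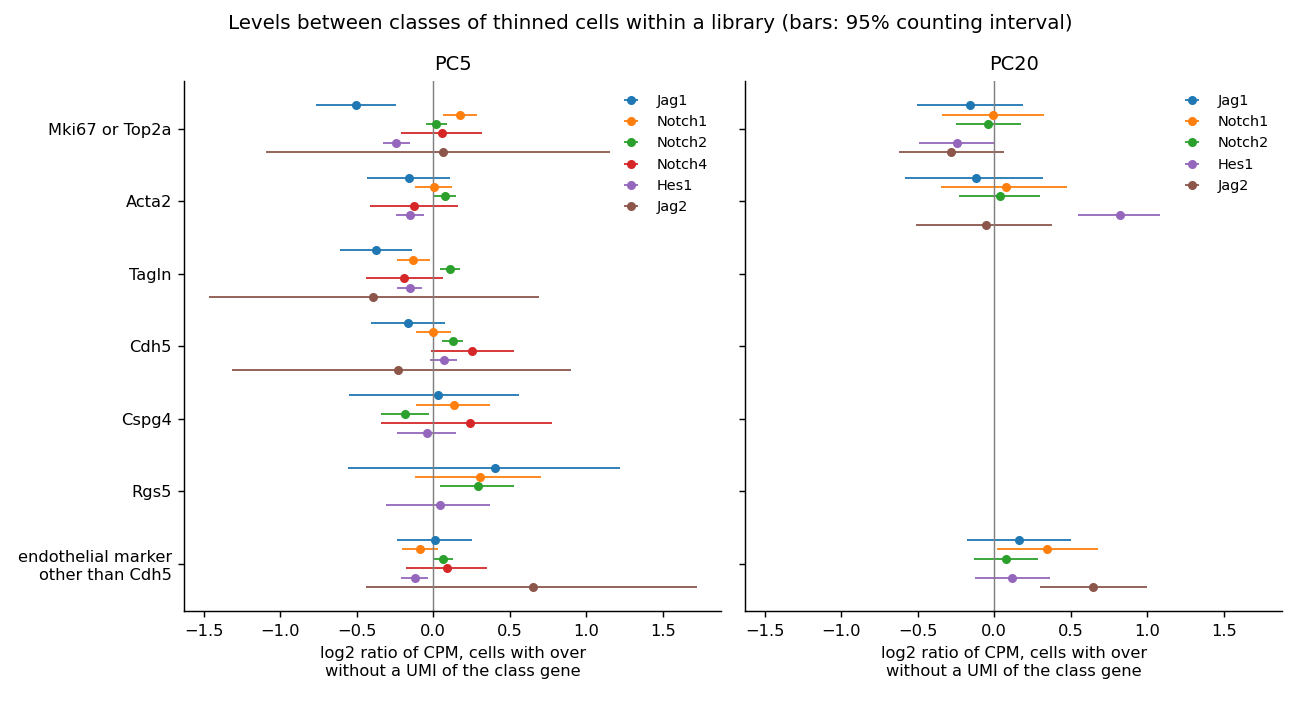
Log2 ratio of CPM between thinned cells with and without a UMI of the class gene on the vertical axis, for members with at least 10 UMIs on each side, with 95% counting intervals, PC5 left and PC20 right. Most points lie within 0.5 of 0, and *Hes1* in PC20 cells with *Acta2* (0.82) and *Jag2* in PC20 cells with an endothelial marker (0.64) lie furthest to the right among those with narrow intervals.

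Between classes of cells within a library, each member plotted differed by a log2 ratio under 1 in size. A UMI of *Mki67* or *Top2a*, genes of dividing cells, was found in 3130 of 8847 thinned PC5 cells and 2612 of 4474 thinned PC20 cells. In PC5 *Jag1* lay at 5.14 CPM in such cells and 7.28 CPM in the others, with the log2 ratio at -0.50 (-0.77 to -0.24). *Hes1* was lower in such cells in PC5, at -0.24 (-0.33 to -0.15), and had the same value of -0.24 in PC20 (-0.49 to 0.00), whereas *Notch2* was level at 0.02 (-0.05 to 0.09) in PC5 and -0.04 (-0.25 to 0.17) in PC20. The *Hes1* level of PC20 differed most by *Acta2*. It lay at 18.2 CPM in the 856 cells with an *Acta2* UMI and 10.3 CPM in the rest, with the log2 ratio at 0.82 (0.55 to 1.09), while in PC5 the same ratio was -0.15 (-0.25 to -0.06).

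Of the pericyte markers, only *Rgs5* and *Cspg4* were used as classes, and their *Notch2* ratios had opposite signs. In the 133 PC5 cells with a UMI of the pericyte marker *Rgs5*, *Notch2* lay at 104 CPM against 84.9 CPM in the rest, with the log2 ratio at 0.29 (0.04 to 0.53). In the 430 with *Cspg4*, which encodes the pericyte proteoglycan NG2, it was lower, at -0.18 (-0.34 to -0.03). Both intervals come near 0 and cover counting error only, while *Notch2* lay between 56.0 and 129 CPM across the 13 PC5 clusters of deeper cells. Neither direction is settled by these values. *Notch4* in the 5696 PC5 cells with *Cdh5* lay at 6.02 CPM against 5.05 CPM without, with the log2 ratio at 0.25 (-0.02 to 0.53) whose interval spans 0. In PC20 the 2182 cells with an endothelial marker, nearly all through *Flt1*, had *Jag2* at 7.59 CPM against 4.86 CPM in the other 2292, with the log2 ratio at 0.64 (0.30 to 0.99).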

How the data were processed

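Transcripts of single PCs from culture were measured in 1 library per passage (PC5, PC20), grouped as labelled. The files deposited hold UMI counts for each gene in each barcode, which the authors made with Cell Ranger 5.0 on mm10 from 3′ droplet libraries and did not normalize. Adult and embryonic cells, and Notch ligands and receptors outside the lists, were not analysed here. The members and gene lists were chosen with earlier results of these data known. Other pathway genes were named if they had a UMI in at least 10% of thinned cells of either library and a log2 ratio past 1 in size, at most 10 in each direction, or if a sentence on a role needed them. Cluster leading genes, *Tie1* and the genes at 0 were named after their values were seen, and a few genes that these rules name are not reported here.

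UMIs of kept cells were summed per library. Intervals were exact Poisson (CPM), conditional binomial (ratios) and Clopper-Pearson (shares) at the 95% level, with a floor of 3 UMIs for zero counts in ratios. No doublets were removed. Clusters came from Seurat 5.3.0 with 2000 variable genes, mitochondrial and ribosomal percentages regressed, 15 dimensions and resolution 0.8, per library. Positions come from GENCODE M21 on GRCm38, which held 30934 of 31053 listed identifiers. *Mir6941* lies within *Jag2*, *Mir6996* within *Notch1*, and *Gm42819* and *Gm42820* within *Notch2* on the same strand, and none of these is listed in the files. Promoter windows come from RefSeq on GRCm38.p6. *Hes1*, *Hey1* and *Heyl* had no entry. Python 3.11.15, numpy 2.4.6, scipy 1.17.1 and pandas 2.3.3 were used, and the computation was tested on simulated counts. The alternatives were other cell filters, thinned cells, cells without *Mki67* or *Top2a*, the deepest 5% of cells left out, a library total that omits mitochondrial and ribosomal protein genes, centring, a pseudocount and other detection minimums. Leaving out shared barcodes, cluster 15 of PC5 or cluster 9 of PC20 was added after seeing the data.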

Additional observations from a re-analysis of the deposited data

How the results depend on the processing

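The count of 5 members past a log2 ratio of 1 in size, 4 higher in PC5 and 1 in PC20, was also obtained with all barcodes, a stricter cell filter, thinned cells, cells without *Mki67* or *Top2a*, without the deepest 5% of cells, with the other library size, with centring, and without shared barcodes, cluster 15 of PC5 or cluster 9 of PC20. With means over cells scaled to 10000 UMIs and a pseudocount of 1, the counts were 0 in all, 0 higher in PC5 and 0 higher in PC20, since a pseudocount of 1 exceeds the mean of each member. On that scale *Notch2* stood at 0.65 and *Jag2* at -0.08. With a minimum of 10% of cells, 3 of 3 members were past 1 and 0 were higher in PC20. With more than 3 UMIs as the minimum, 8 of 9 were past 1, of which 3 were higher in PC20. Apart from the detection minimums, each alternative was counted over 6 members. The 40.6% of all genes given above is for the 1% minimum and the main setting. None of the counts under the alternatives, the pseudocount included, therefore has a share over all genes beside it. Thinning put *Notch4* at 8.06 on 527 UMIs against 1. Without *Mki67* or *Top2a*, *Notch4* stood at 6.73 on 601 UMIs against 2, *Notch2* at 2.56 and *Hes1* at 1.79. Both *Notch4* values rest on fewer PC20 UMIs than the floor of 3, and the cause of the shifts was not tested. No member with a log2 ratio past 1 changed sign under any of these alternatives. No paired analysis was possible because each passage has 1 library. Depth limits *Hey1*, *Hey2*, *Heyl* and *Dll1*, with at most 85 UMIs each.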

Other observations

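The barcodes that failed the cell filter held few UMIs in all. In PC5 the 679 left out held 924207 UMIs, with *Notch2* at 18.4 CPM (10.7 to 29.5), *Hes1* at 33.5 CPM (22.8 to 47.6) and *Jag1* at 6.49 CPM (2.38 to 14.1). In PC20 the 135 left out held 184103 UMIs, with *Notch2* at 21.7 CPM (5.92 to 55.6) on 4 UMIs and *Hes1* at 32.6 CPM (12.0 to 70.9) on 6. The intervals of *Jag1* in PC5 and *Notch2* in PC20 held the level of the kept cells, whereas *Notch2* and *Hes1* in PC5 lay below it. The highest count of a member in any kept cell was 21 UMIs, reached by *Jag1* and *Notch2* in PC5 and by *Hes1* in PC20. Of the cells with a UMI, 63.8% had more than 1 for *Notch2* in PC5 and 35.8% in PC20, against 7.26% for *Notch4* in PC5.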
